A study of Mus musculus with 249 samples.

Results

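Chromosome 19 is the shortest mouse autosome, and its members were all 40 kb windows from 3 Mb onward that the segregation table lists for it. They number 1459 of the 68162 windows listed for the whole genome and span 58.36 Mb, against 58932 windows on the other autosomes. The 249 libraries come from multiplex-GAM, in which several thin slices of nuclei (nuclear profiles, each from another cell) are laser-dissected from 220 nm cryosections into a tube, and the tube's DNA is amplified and sequenced. A window is positive in a library when its DNA was called present there, and the proximity of 2 windows is read from how far their joint calls over all libraries exceed those of independent windows.

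All libraries were made from 46C, a mouse embryonic stem cell line of strain 129/Ola with GFP knocked in at Sox1, so the cells are 1 line and no cell type, genotype or treatment of cells was compared. Titles give 4 profiles per tube and the series description an average of 3. Libraries belong to 11 experiments on sample preparation. Reagent volumes were varied in protocols A, B and C (10, 11 and 10 libraries), proteinase K in titled volumes of 1 and 2 µl (5 and 6), and PCR in 20, 23 and 25 cycles (4, 5 and 3). Tubes were frozen after incubation or left unfrozen (10 and 11), or frozen early or late (12 and 11). Sections were stained with cresyl violet or left unstained (16 and 10), and kits were titled large or small (11 and 12). The other experiments have 1 arm each: the unstained arms of propidium iodide (20), eosin (18) and SYBR Gold (10) tests, and a full collection of cresyl violet sections (54). The protocol text contradicts the titles on SYBR Gold staining and on the proteinase K volumes, and the titles were followed. Whatever else differed between experiments cannot be told apart from the experiment. Presence calls on DNA carry no expression, and the stem cell identity could not be checked against marker genes.

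As background, a mouse chromosome occupies its own territory in the nucleus, and within it linkage falls with genomic distance and is interrupted at borders between domains. CTCF, a zinc finger protein, and cohesin, a ring complex with the subunit Smc3, are known to hold many such borders. Mouse chromosomes have their centromere at the end where counting starts, and gene-rich chromatin tends to lie in the nuclear interior while gene-poor chromatin tends to lie at the lamina. Chromosome 19 carries 724 protein-coding genes, with clusters of olfactory receptor and cytochrome P450 genes among them. It also carries the neighbouring noncoding genes Malat1 and Neat1, which make 2 abundant nuclear RNAs. Its mean GC content of 42.7% and its density of 12.4 gene starts per Mb both ranked 3 among the 19 autosomes.

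The sequences shown first come from the 2 windows most often called and the 2 least often called above the minimum, to show the sequence at both ends of detection. Each is the 180 base stretch outside annotated exons with the most CpG dinucleotides in its window, read 5′ to 3′ on the plus strand of NCBIM37 (mm9), with CpG in capitals. The Fbxw4 stretch (chr19:45734836-45735015) lies 34 bases upstream of the start of Fbxw4, an F-box protein gene, in the window found in 147 libraries. The Pank1 stretch (chr19:34952812-34952991) is intronic in Pank1, which encodes a pantothenate kinase of coenzyme A synthesis, in a window found in 89. The Cyp2c29 stretch (chr19:39422267-39422446) is intergenic, in the window with the 3′ end of the cytochrome P450 gene Cyp2c29, which was found in 28 libraries. The last stretch (chr19:51007845-51008024) is intergenic, in a window with no gene that was found in 29. Another window (chr19:59920001-59960000), which holds 313 CpG, tied with it at 29 and is not shown.
Fbxw4 window: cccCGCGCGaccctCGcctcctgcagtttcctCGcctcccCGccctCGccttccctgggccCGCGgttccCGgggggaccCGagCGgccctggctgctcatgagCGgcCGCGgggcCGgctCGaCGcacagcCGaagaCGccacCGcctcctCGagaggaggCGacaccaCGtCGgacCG
Pank1 window: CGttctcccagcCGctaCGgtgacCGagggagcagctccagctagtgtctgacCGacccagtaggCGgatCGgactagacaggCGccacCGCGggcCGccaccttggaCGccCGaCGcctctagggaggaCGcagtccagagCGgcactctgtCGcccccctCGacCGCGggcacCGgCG
Cyp2c29 window: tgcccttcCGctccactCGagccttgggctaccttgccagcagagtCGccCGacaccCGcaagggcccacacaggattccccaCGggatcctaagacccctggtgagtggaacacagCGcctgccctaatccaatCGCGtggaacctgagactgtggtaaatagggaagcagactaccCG
Gene-free window: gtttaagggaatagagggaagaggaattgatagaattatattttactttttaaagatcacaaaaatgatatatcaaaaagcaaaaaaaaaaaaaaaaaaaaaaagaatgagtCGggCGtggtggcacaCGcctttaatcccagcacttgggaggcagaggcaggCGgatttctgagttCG
The 4 stretches hold 26, 22, 10 and 5 CpG, and their whole windows hold 610, 545, 247 and 178. The median window of the chromosome holds 353. The order of CpG does not follow detection in every such window, since the next most often called (chr19:3200001-3240000, 88 libraries) holds 324 and the window of Il33 (30 libraries) holds 486.

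Chromosome 19 was sampled about as often as the rest of the autosomal genome. A library was positive on average in 20.5% of its windows (SD 14.2, n = 249), against 19.8% on the other autosomes. Over the libraries this share ran from 0% through a median of 18.5% to 62.4%. The difference from the other autosomes averaged 0.690 percentage points (SE 0.787), with 126 of 249 libraries above 0. It did not pass a permutation test in which the signs of the library differences were flipped at random (two-sided p = 0.381, adjusted over 21 chromosomes p = 0.615), a test which 28.6% of the chromosomes passed. The size of this difference depended on how it was averaged, at 0.124 points as the median over libraries, 0.265 with the other autosomes weighted to the GC content of chromosome 19, and 0.366 over windows found in at least 25 libraries.

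Single libraries were spread widely around this mean. The difference from the other autosomes ran from -24.6 to 44.8 points, and its SD over libraries of 12.4 points was the widest of the 19 autosomes. The SD of the percentage itself, 14.2, ranked 4 from the widest over all windows. It ranked 12 once every autosome was limited to the same number of windows, where the values lay between 11.2 and 16.8. The SD of the difference was not limited in this way. Fewer than 1% of the windows were positive in 6 libraries, against a median of 11 libraries for the other autosomes. At a cut of 5% the order turned, with 39 libraries against a median of 32. More than 50% were positive in 7. The single library with no positive window was in the unfrozen arm. Counting error would allow it a share of up to 0.206% if windows were independent draws. Positive windows lie in runs, so this limit is too narrow.

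Positive windows of a library lay in runs. A run averaged 122 kb, the median library had 100 runs, and the longest run of any library spanned 3.72 Mb. The neighbour share, the percent of positive windows with a positive adjacent window, was 79.3% on chromosome 19 and 81.9% on the other autosomes over the 239 libraries with at least 20 positive windows here. The difference was -2.60 points (SE 0.644), with 112 of 239 libraries above 0, and it was -1.41 points over libraries with at least 50 positive windows. All 19 autosomes had a negative difference by this measure, from -5.70 to -0.570, and 94.7% of them passed the sign-flip permutation test, chromosome 19 included (adjusted p = 6.79e-05). Chromosome 19 ranked 9 among the 19, so the difference is not particular to it.

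Whether preparation changed the sampling of this chromosome was asked across and within experiments. The mean difference from the other autosomes was lowest in the PCR cycle experiment, at -8.23 points (SD 11.1, n = 12) with 2 of 12 libraries above 0. It was 5.22 points (SD 12.4, n = 11) in the proteinase K experiment and 4.86 points (SD 16.3, n = 26) in the cresyl violet experiment. Without replicate 1 of the titled volume of 2 µl, which was at 35.5 points, the proteinase K mean was 2.19 (n = 10), below that of cresyl violet. This and the other leave-one-out means by experiment were chosen after seeing the data. The ranges of all 11 experiments overlapped, and the permutation test of the F statistic did not pass (F = 1.43, p = 0.163, adjusted p = 0.343), where 9.52% of the chromosomes passed.

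**Figure D1:**
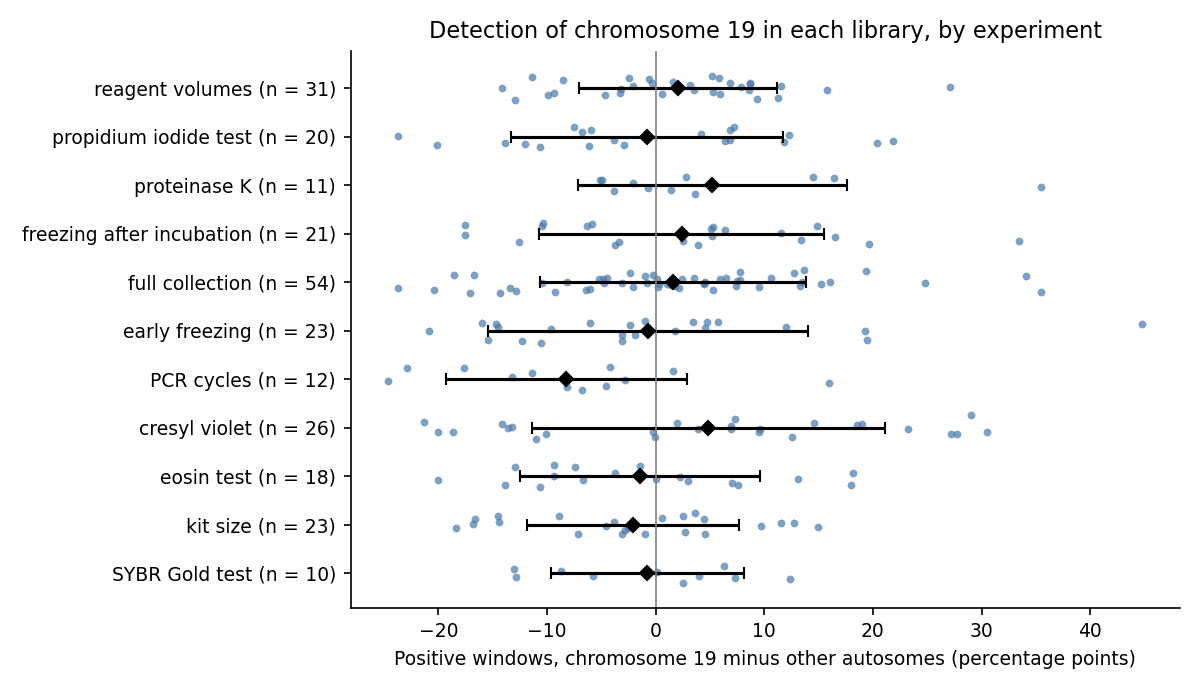
Percent of positive windows on chromosome 19 minus that on the other autosomes (percentage points) in each of 249 libraries (points), by experiment, with the mean and SD (diamond and bar). The PCR cycle libraries average -8.23 points and the proteinase K libraries 5.22, with spreads that cross 0 and each other.

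Of the 11 contrasts between arms of an experiment, 0 had a permutation p under 0.05 for chromosome 19, adjusted or not. Over the 220 such contrasts of 20 chromosomes, 3.64% had an unadjusted p under 0.05 and 0 an adjusted one. Libraries of 25 cycles averaged -13.5 points (SD 13.6, n = 3) and those of 20 cycles -4.19 (SD 13.6, n = 4), a difference of -9.36 points (exact permutation p = 0.429) that ran from -17.0, without replicate 3 of 25 cycles, to -2.63, without replicate 4 of 20 cycles. Tubes frozen after incubation averaged -2.23 points (SD 11.9, n = 10) and unfrozen ones 6.58 (SD 13.2, n = 11), and 2 of 10 frozen libraries lay above the unfrozen mean (permutation p = 0.127, adjusted p = 0.879). Their difference of -8.80 points was -4.27 with medians. Stained cresyl violet libraries averaged 7.37 points (SD 14.9, n = 16) and unstained ones 0.840 (SD 18.3, n = 10), a difference of 6.53 (permutation p = 0.324). All pairs of arms overlapped.

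Nearly all of the chromosome was covered by the collection. A window was positive in a median of 51 libraries, with quartiles of 45 and 57, against a median of 50 on the other autosomes. At least 25 libraries held 1452 windows (99.5%), and at least 40 held 91.4%, against 86.6% of the windows of other autosomes. The 7 windows below 25 libraries form 2 runs. The first is chr19:3000001-3080000, the start of the listed sequence, where 1 window was never positive and 1 was positive in 2 libraries. The other is chr19:6680001-6880000, where 4 windows have no known base in NCBIM37 and were never positive, and 1 window with 8005 known bases was positive in 22. A window at 0 of 249 libraries allows a share of up to 1.2%.

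The window with the start of Fbxw4 (chr19:45720001-45760000) stood apart, with 147 positive libraries against 46 and 38 in its neighbours. It was the only positive window of its surroundings, with both neighbours negative, in 98 of those 147 libraries (66.7%). It was positive in 45.2% of the reagent volume libraries, 63.0% of the full collection and 75.0% of the propidium iodide libraries, and it lay above both neighbours in all 11 experiments. On the other autosomes, 22 windows were positive in at least as many libraries. Next came both Pank1 windows (chr19:34880001-34960000), at 85 and 89 libraries, and a window without a protein-coding gene (chr19:3200001-3240000) at 88. The rarest windows above the minimum were those of Cyp2c29 (chr19:39400001-39440000, 28 libraries) and of Il33, a cytokine gene (chr19:30000001-30040000, 30 libraries), with 2 gene-free windows (chr19:51000001-51040000 and chr19:59920001-59960000) at 29 each.

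Over longer stretches, detection changed in broad steps. Between 23 and 25 Mb a window was positive in 60.6 libraries on average (SD 7.13, 50 windows), and between 3 and 5 Mb in 59.3 (SD 14.6). The lowest stretches were 59 to 61 Mb with 41.2 libraries (SD 6.31), 49 to 51 Mb with 43.4 (SD 5.83) and 51 to 53 Mb with 43.7 (SD 6.95). Gene number did not follow this order throughout, with 17 gene starts between 23 and 25 Mb, 64 between 3 and 5 Mb, 19 between 59 and 61 Mb, and 2 and 1 in the other low stretches. Across the 1452 windows, detection and GC content had a Spearman correlation of 0.390, which ranked 15 among the autosomes, and adjacent windows share their libraries. From the tenth of windows poorest in GC (37.4%) to the richest (50.4%), the mean rose from 46.6 libraries (SD 7.52) to 56.7 (SD 7.54).

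Both chromosome ends were compared with the rest in each library. The first 10 Mb, next to the centromere, were positive at 22.1% and the rest at 20.2%. This difference of 1.92 points (SE 0.917, 136 of 249 libraries above 0) had a sign-flip permutation p of 0.0366 and did not pass after adjustment over 19 autosomes (p = 0.0992), where 21.1% of the autosomes passed. For the first 5 Mb the difference was 2.89 points and passed the same test (adjusted p = 0.0434). The share of autosomes that passed at 5 Mb is not given here. The last 10 Mb were positive at 19.2% and the rest at 20.8%, a difference of -1.62 points (SE 0.922, adjusted p = 0.188), where 26.3% of the autosomes passed. For the last 5 Mb it was -2.51 points (adjusted p = 0.0511). GC content was 45.3% in the first 10 Mb and 43.3% in the last 10 Mb.

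Listed genes were placed in this profile by the mean over their windows, with no test between groups. Of all 724 protein-coding genes, 66.4% lay above the chromosome's median window of 51, with a median of 55 libraries. Of 11 chromatin and transcription regulators, 10 lay above it, with a group median of 63.0 libraries. Kat5, a histone acetyltransferase, was found in 72 libraries, Rela, a subunit of NF-kappaB, in 71 on average over its windows, and Suv420h1, a histone H4 lysine methyltransferase, in 67.5. Smarca2, an ATPase of chromatin remodelling complexes, was the exception at 49.7. The RNA genes Malat1 and Neat1, which lie between 5 and 7 Mb, averaged 66.5 and 61.5 libraries. Of the 11 regulators, 6 lie in the first 10 Mb, where GC content is 45.3%, and the part of base composition in these counts was not tested.

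Of 9 developmental regulators, 2 lay above the median window, with a group median of 48 libraries. Pitx3, a homeobox gene of dopaminergic neurons, reached 70 and Dmrt1, a regulator of testis development, 57.0. Emx2, a homeobox gene of the forebrain, was lowest at 37, and Tlx1, Lbx1 and Fgf8 were found in 44, 45 and 46 libraries. Wnt8b, Pax2, Tlx1, Lbx1 and Fgf8 lie close together (chr19:44567962-45817405), where neighbouring windows share libraries, so their counts are not independent. Of 8 long genes, 3 lay above the median, namely Glis3, Trpm3 and Tcf7l2. Prkg1, a cGMP-dependent kinase gene spread over 30 windows, averaged 41.5 libraries (SD 4.39), as did Sorcs1, a sorting receptor gene over 14 windows (SD 4.52). Of 6 clustered families, 0 had a mean above the median. Olfactory receptor windows averaged 47.3 libraries (SD 6.18, 38 windows), Cyp2c windows 49.1 (SD 6.86, 31 windows) and the pancreatic lipase family Pnlip 39 (3 windows).

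**Figure D2:**
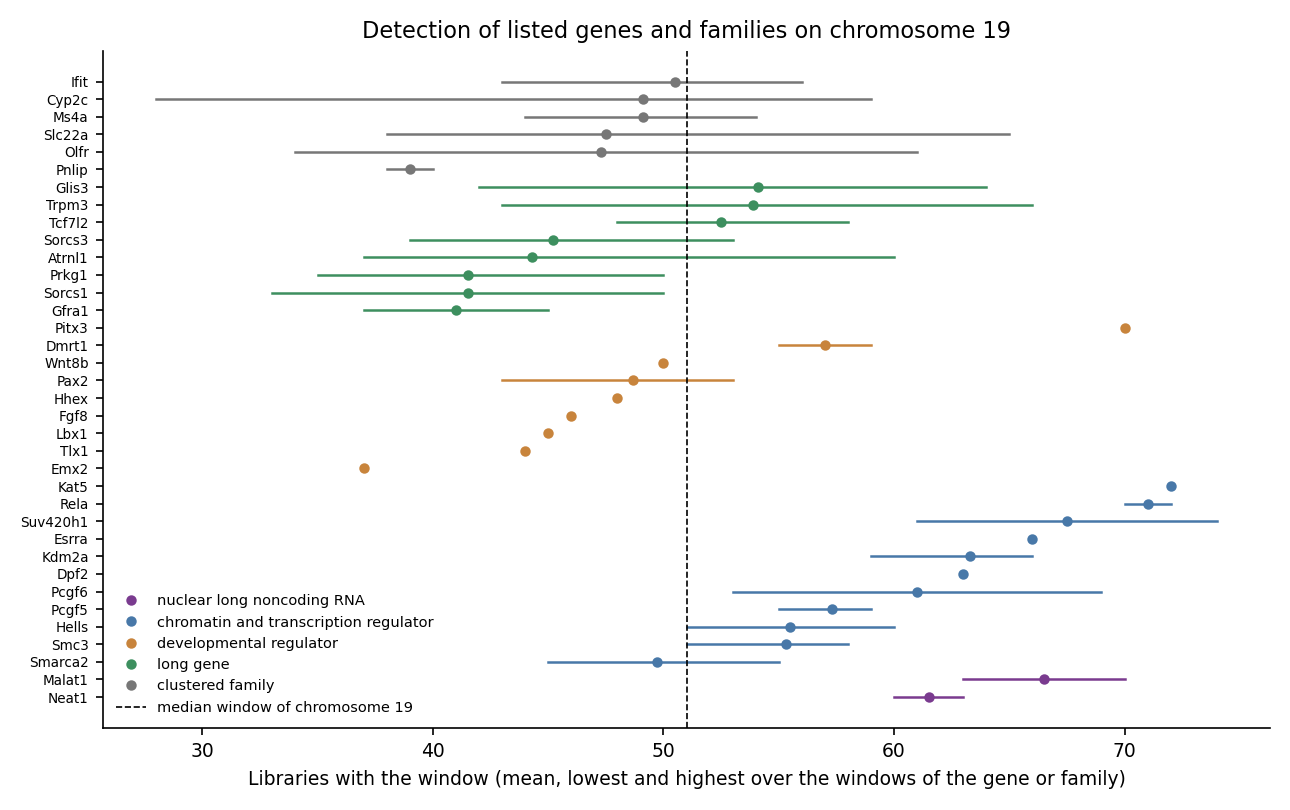
Number of libraries holding the windows of each listed gene or family on chromosome 19, as the mean (point) with the lowest and highest window (line), coloured by list. Of the 11 chromatin and transcription regulators, 10 have a mean right of the dashed median of 51, and none of the 6 clustered families does.

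Single windows were compared between the full collection (54 libraries) and the other 195, and between stained and unstained cresyl violet libraries, with Fisher's exact test. The full collection is an experiment of its own on stained sections, and 16 of the other 195 libraries are stained, so experiment and collection cannot be told apart. Of 1453 chromosome 19 windows tested, 0 passed with Benjamini-Hochberg adjustment over all 63543 windows, where 0.0% passed genome-wide. An unadjusted p under 0.05 was reached by 58 (3.99%), against 6.59% genome-wide. Of these, 53 were less often positive in the full collection and 5 more often, where the genome-wide shares of windows were 6.06% and 0.527%. This split turned when libraries were stratified by tertile of coverage (Mantel-Haenszel test), where the full collection was lower in 12 and higher in 16 of the 28 windows that reached that p (3.28% of windows genome-wide did). The lowest p was that of the gene-free window chr19:51400001-51440000, positive in 0 of 54 libraries, which allows up to 5.56%, and in 42 of the other 195 (exact p = 1.79e-05, adjusted p = 0.43). A second window nearby (chr19:51280001-51320000) was positive in 1 of 54 and 41 of 195, and the gene-free window chr19:35800001-35840000 in 3 and 44. The window chr19:34920001-34960000, with the start of Pank1, went the other way with 30 of 54 (55.6%) and 59 of 195 (30.3%). From 51 to 53 Mb the full collection was positive in 11.3% of windows and the other libraries in 19.3%, whereas from 23 to 25 Mb it was 25.6% and 24.0%.

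In the cresyl violet experiment, 0 of 1445 windows passed adjustment (0.0% of 59680 genome-wide). An unadjusted p under 0.05 was reached by 29 (2.01%), against 2.61% genome-wide, and 25 of these were more often positive after staining and 4 less often, where the genome-wide shares were 0.355% and 2.25%. Stratified by coverage tertile, 20 windows reached that p (1.38%), against 0.999% genome-wide, which turned the order. Both shares lie near those of the genome and adjacent windows share libraries, so neither is read as a result about the chromosome. All 4 windows of lowest p lay in the gene-dense first stretch of the chromosome. The window of Ssh3, a cofilin phosphatase gene, and Ankrd13d (chr19:4240001-4280000) was called in 12 of 16 libraries after staining and in 1 of 10 without it (exact p = 0.00361, adjusted p = 1). The window of Dpp3, a peptidase gene, and Peli3 (chr19:4920001-4960000) was positive in 9 of 16 and 0 of 10, which allows up to 30%. Both windows over Mark2, a polarity kinase gene (chr19:7360001-7440000), were positive in 14 of 16 and 3 of 10. The windows next to these differed in the same direction.

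Linkage was measured with D′, the frequency at which 2 windows were positive together minus the product of their own frequencies, divided by the largest size that difference can take. It is 0 for independent windows and 1 when the rarer window is never seen without the other. Errors are standard errors from leaving out each library in turn (jackknife). The chromosome was chosen with its order at 1 and 4 Mb known, so its D′ values are given as a description, with no test.

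Adjacent windows of chromosome 19 had about the mean linkage of other autosomes, and at the other 8 distances chromosome 19 lay below their mean. Mean D′ at 40 kb was 0.626 (SE 0.00871, 1450 pairs), and the mean of the other autosomes was 0.625. At 200 kb it was 0.472 against 0.481, and at 400 kb 0.407 against 0.420. At 1 Mb it was 0.295 (SE 0.0105) against 0.323, a difference of -0.0275 (SE 0.00991), and at 2 Mb 0.219 against 0.246, a difference of -0.0274 (SE 0.0110). The deficit was -0.0234 (SE 0.0125) at 4 Mb and -0.0356 (SE 0.0140) at 10 Mb. It shrank to -0.00856 (SE 0.0138) at 20 Mb, where D′ of 0.126 was above its value of 0.110 at 10 Mb, and was -0.0288 (SE 0.0178) at 40 Mb.

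Chromosome 19 had the lowest mean of the 19 autosomes at 6 of the 9 distances, and at these its gap to the next autosome was smaller than 2 SE. At 1 Mb the next was chromosome 15 at 0.311, a gap of -0.0158 (SE 0.0138), and at 4 Mb chromosome 6 at 0.172, a gap of -0.00793 (SE 0.0147). With the other autosomes cut to as many windows it was lowest at 1, 2, 4 and 10 Mb, but ranked 5 from the lowest at 400 kb, 4 at 20 Mb and 2 at 40 Mb. Within the 7 experiments of 20 or more libraries, over windows positive in at least 5 of them, chromosome 19 lay below the mean of the others in 7 at 1 Mb and in 6 at 4 Mb, and it was the lowest autosome in 1 and 0 of them. In the experiment on freezing after incubation it lay above the others at 4 Mb, at 0.199 against 0.172. In the full collection the values at 1 Mb were 0.304 and 0.340, with a rank of 2 from the lowest.

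**Figure D3:**
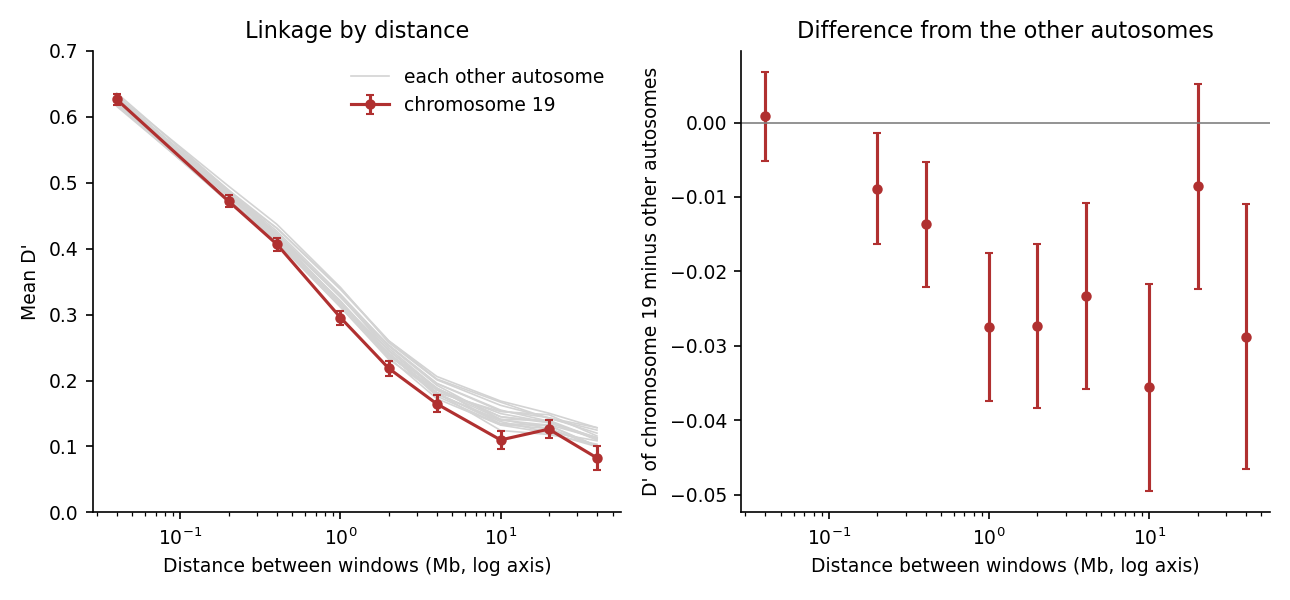
Left, mean D′ by distance between windows (Mb, log axis) for chromosome 19 (red, bars are jackknife SE) and each other autosome (grey). Right, the difference from the mean of the other autosomes with its SE, which is 0.000825 at 40 kb, -0.0275 at 1 Mb and -0.0356 at 10 Mb.

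Linkage was also compared by gene density. Window pairs of all autosomes were ranked into 4 equal classes by the gene starts within about 1 Mb around them, and 36.2% of the chromosome 19 pairs at 1 Mb fell in the densest class. There D′ at 1 Mb averaged 0.274 on chromosome 19 and 0.304 on the others. In the class below it was 0.290 and 0.324, in the next 0.324 and 0.331, and in the sparsest 0.317 and 0.334, so the values lay closest in the second sparsest class. With the other autosomes weighted to the gene density of chromosome 19, the values at 1 Mb were 0.295 and 0.320, and those at 4 Mb 0.165 and 0.187. On the other autosomes linkage at 1 Mb was lowest in the densest class as well.

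Local linkage was uneven along the chromosome. Over pairs up to 1 Mb apart within 2 Mb stretches, D′ was highest from 39 to 41 Mb (0.439), 7 to 9 Mb (0.435) and 21 to 23 Mb (0.433), and lowest from 49 to 51 Mb (0.349), 11 to 13 Mb (0.352) and 29 to 31 Mb (0.354). From 11 to 13 Mb it was 0.344 outside the full collection and 0.425 within it. In the other low stretches the full collection was lower, at 0.314 against 0.351 from 49 Mb and 0.259 against 0.372 from 29 Mb. The stretch from 39 to 41 Mb holds most of the Cyp2c cluster, that from 11 to 13 Mb olfactory receptor genes, and that from 49 to 51 Mb Sorcs1. Across the 29 stretches local D′ had a Spearman correlation of -0.100 with gene starts and 0.351 between the full collection and the other libraries. Between zones of 10 Mb, the first zone (3 to 13 Mb) had a mean D′ of 0.125 with the next zone, 0.0753 with the zone from 33 Mb and 0.110 with the last zone, from 53 Mb. In the full collection alone these values were lower, at 0.063, 0.0165 and 0.0615. Within that last zone, which the chromosome's end makes shorter than the others, mean D′ was 0.263 over all libraries and 0.304 in the full collection.

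Blocks of linkage were read from an insulation score, the mean D′ between the 400 kb on either side of a point, where a boundary is a local minimum with a prominence of at least 0.5 SD. The score averaged 0.414 (SD 0.0449 along the chromosome), and the next autosomes were chromosomes 6 and 15 at 0.417 and 0.419, with no error computed for these gaps. Chromosome 19 had 62 boundaries, or 10.6 per 10 Mb against 9.09 to 11.1 on the others, with a median block of 840 kb and blocks from 440 to 1720 kb. The score was highest at 16.52 Mb (0.561), in the stretch of the G protein genes Gnaq and Gna14 and of Vps13a.

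The deepest boundary, at 39.04 Mb, lay at Hells, a chromatin remodelling helicase gene, between Plce1 and Noc3l on one side and the Cyp2c cluster on the other. Its score of 0.227 was the lowest of the chromosome and its prominence 5.95 SD. It was 0.218 in the libraries outside the full collection, 4.11 SD below their mean, and 0.272 in the full collection, 1.78 SD below. All named boundaries were picked in the map of all 249 libraries, which holds both sets, so these scores are a description. The boundary at 53.08 Mb, in Xpnpep1, an aminopeptidase gene, had a score of 0.264 (prominence 5.07 SD), with 0.283 and 0.214 in these library sets. It separates 1 Mb with 1 gene start from 1 Mb with 11. The boundary at 19.04 Mb, in Rorb, a nuclear receptor gene, scored 0.308, with 0.316 and 0.352. The latter was 0.981 SD below the mean of the full collection, whose nearest boundary lay 200 kb away. Those at 12.92 Mb, by Lpxn and olfactory receptor genes, and at 6.36 Mb, at Men1, a tumour suppressor gene, and Sf1, a splicing factor gene, scored 0.312 and 0.301. At 6.36 Mb the other libraries scored 0.294, 2.52 SD below their mean, and the full collection 0.384, only 0.661 SD below its own. At 12.92 Mb the full collection scored 0.468, which is 0.187 SD above its own mean, so the score there was not low.

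**Figure D4:**
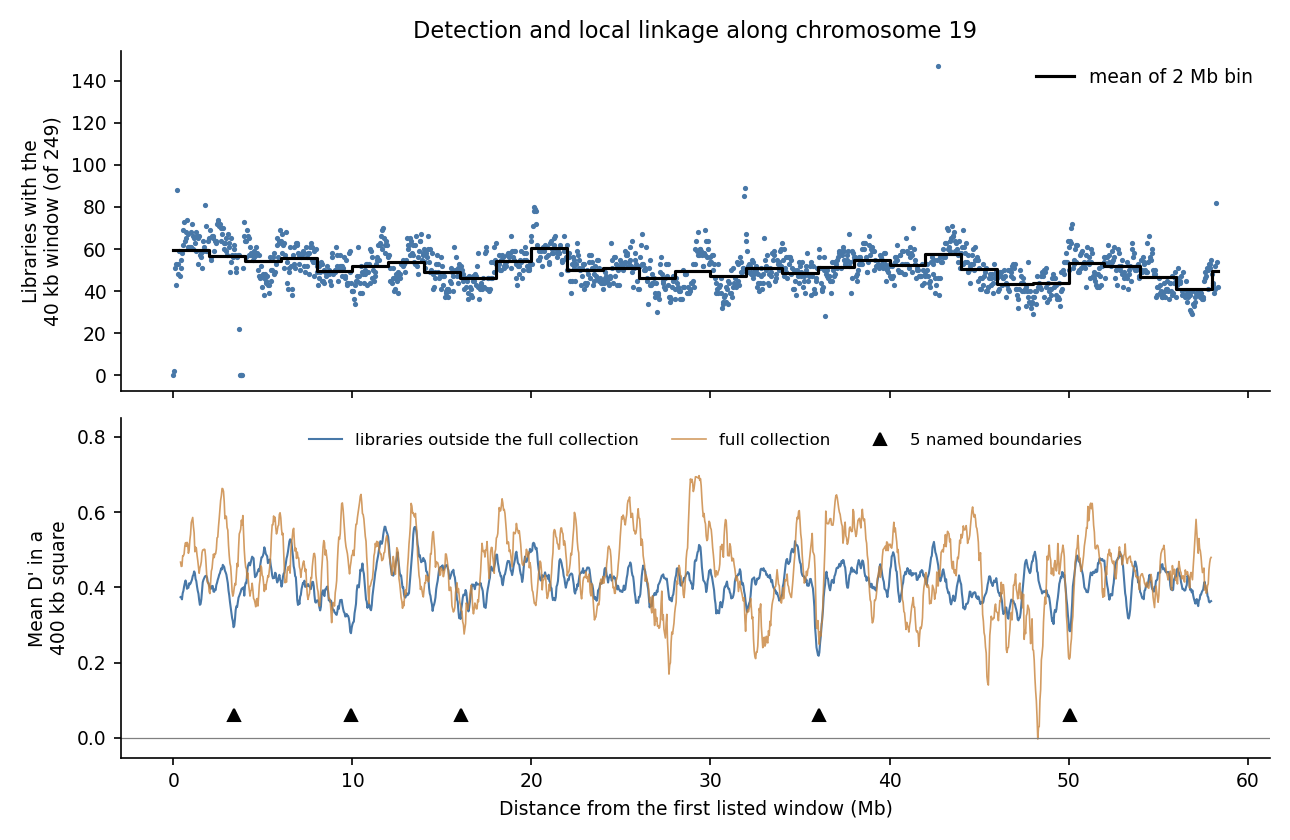
Along chromosome 19 (distance from the first listed window in Mb), the libraries holding each 40 kb window with the mean of 2 Mb bins (top), and the mean D′ in a 400 kb square for the full collection and the other libraries (bottom), with triangles at the 5 boundaries of largest prominence. The Fbxw4 window stands at 147 libraries. Both lines dip at the Hells boundary, which was picked in the map of all libraries, to 0.272 and 0.218.

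Boundaries depended on the library set. Called separately, the full collection gave 66 and the other libraries 60, and 21 of the 66 (31.8%) lay within 80 kb of one of the others, as did 21 of the 60 (35%). Of all windows of the chromosome, 20.6% lie within 80 kb of a boundary of the other libraries and 22.6% within 80 kb of one of the full collection. Over 1440 positions the insulation scores of both sets had a Pearson correlation of 0.188, and positions less than 400 kb apart share window pairs. The lowest score of the full collection, -0.00344, lay at 51.28 Mb, where the other libraries scored 0.439. That point borders the window positive in 1 of the 54 libraries and lies near the window positive in 0, so few positive calls stand behind it.

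A core motif of CTCF of 12 bases, CCAC then any base, AGG, any base and GGC, was searched on both strands of the chromosome. It was found 202 times, in 12.2% of all 40 kb windows and in 22.4% of all pairs of adjacent windows. Of the 62 boundaries, 22 (35.5%) had a match in the pair of windows on either side. The stretch printed with the match in Rorb is chr19:19049675-19049734 and that in Sf1 is chr19:6373937-6373996, both in introns and on the plus strand. They are shown with the motif in capitals because both lie in windows of named boundaries.
Rorb intron: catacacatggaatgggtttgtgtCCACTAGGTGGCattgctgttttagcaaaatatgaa
Sf1 intron: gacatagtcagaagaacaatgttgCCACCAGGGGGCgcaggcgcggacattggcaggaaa
The other 3 named boundaries, Hells included, had no match to these letters in their 80 kb.

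A division of the chromosome into alternating sides differed between library sets. The first principal component of the distance-corrected map in 291 bins of 200 kb held 11.3% of the summed absolute eigenvalues. Oriented to rise with gene number, it had a Spearman correlation of 0.122 with gene starts and 0.0102 with GC content, and the sides had 12.6 and 12 gene starts per Mb. Its correlation with detection was larger, at 0.217, and the sides averaged 52.4 and 48.6 libraries per window. Between the full collection and the other libraries the component correlated at 0.00291, with 58.1% of bins on the same side.

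Single window pairs were followed from 1 set of libraries to the other. Pairs from 1 to 4 Mb apart and pairs at least 10 Mb apart with the highest distance z-scores were picked in the 195 libraries outside the full collection, so their values there are given as a description. A pair of gene-free windows, chr19:51160001-51200000 with chr19:52960001-53000000, had D′ of 0.633 in the 195 libraries and -1 in the full collection, with 3 and 6 positive libraries and 0 in common there. The pair of Olfr1453 and Tle4, a corepressor gene (chr19:13080001-13120000 with chr19:14600001-14640000), had 0.654 and 0.196. Neither of these was above the mean of its distance in the full collection.

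Among the distant pairs, a Trpm3 window (chr19:22480001-22520000) and the Arhgap19 window (chr19:41840001-41880000), 19.4 Mb apart, had D′ of 0.595 and then 0.325 in the full collection. The latter is above 83.5% of the pairs at that distance and rests on 5 libraries with both windows. The pair of chr19:25960001-26000000 with the Fbxw4 window had 0.712 and then -0.00735, and that of chr19:20200001-20240000 with the Hpse2 window (chr19:43400001-43440000) had 0.582 and then 0.0357. Of the 1052 pairs from 1 to 4 Mb in the top 1% of z-scores in the 195 libraries, 68.7% were above 0 in the full collection, against 59.4% of all such pairs. Of the 7225 top pairs at least 10 Mb apart, 69.4% were above 0 there, against 65.6% of all. The z-scores of all 105110 pairs from 1 to 4 Mb correlated at 0.0903 between both sets, and those of the 722498 distant pairs at 0.0395, with each window in many pairs.

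Linkage with other chromosomes was near 0 over all libraries. Over thinned windows, mean D′ between chromosome 19 and the other autosomes was 0.00854 (SE 0.0112), and chromosome 19 ranked 18 among the 19 autosomes by this mean. By partner it ran from 0.0293 (SE 0.0157) with chromosome 9 and 0.0283 (SE 0.0131) with chromosome 15 down to -0.00385 (SE 0.0155) with chromosome 11, and neighbours in this order differ by less than their errors. The excess of chromosome 9 over the mean partner was 0.0208 (SE 0.0102). Without the full collection chromosome 15 came first (0.0320) and chromosome 9 took rank 3 (0.0242). In the 54 libraries of the full collection alone all 18 partners were below 0, from -0.0576 with chromosome 17 to -0.182 with chromosome 15. For rarely called windows, D′ divides a negative difference by a smaller maximum than a positive one. This lowers the mean in a small set of libraries, so the sign of these values is not read as avoidance of other chromosomes.

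**Figure D5:**
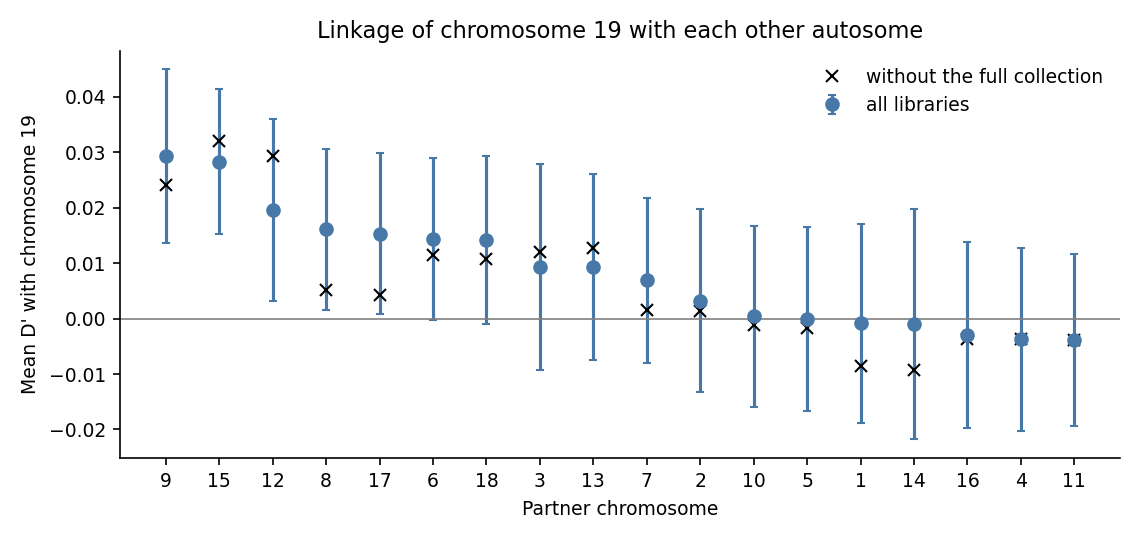
Mean D′ of chromosome 19 with each other autosome, in descending order, with jackknife SE for all libraries (circles) and the value without the full collection (crosses). The partners run from 0.0293 for chromosome 9 to -0.00385 for chromosome 11, and the bars of neighbours in this order overlap.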

How the data were processed

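Per the study's methods and the labels, the authors aligned reads to mm9 with Bowtie2 (version 2.1 in the submitters' processing notes), removed duplicates, and used GAMtools to call each 40 kb window present from 4 reads upward, the same threshold in every library. The deposited values are presence calls, 1 or 0, in 1 column for each of 249 libraries that passed the authors' quality control. All 249 columns were matched to labels, and no 2 libraries held identical calls. No read counts were used here, so depth is unknown and a 0 is not proof of absence. Chromosome lengths of the table equal those of NCBIM37, from which GC content and sequence were read, with genes from GENCODE vM1. The rows before 3 Mb (75 windows of chromosome 19, with 0 positive calls) were left out.

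Groups follow the titles. The labels name no separate cultures, so p-values measure the spread between these libraries only. Per-library differences were tested with two-sided sign-flip permutations (100000 resamples), arms with permutation tests (exact with fewer than 10 libraries in an arm), experiments with 10000 permutations of F, and windows with Fisher's exact test over windows positive in at least 3 libraries. The Benjamini-Hochberg threshold was 0.05. D′ used windows positive in at least 25 libraries. Chromosome 19 and partners were thinned to every 10th window. Tests were checked on simulated data with known shifts, D′ and boundaries. Named windows were the 4 most and 4 least often positive, the 4 of lowest p in each test, the 5 boundaries of largest prominence and the window pairs above, of which 1 that the rule chose is not reported here. The chromosome, gene lists and rules were chosen with earlier results of these data known. Analyses used Python 3.11.15, numpy 2.4.6, pandas 2.3.3 and scipy 1.17.1.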

Additional observations from a re-analysis of the deposited data

Results flagged for a closer look

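Groups of 4 to 10 libraries were searched for a library far from the others, for detection of chromosome 19 relative to the other autosomes (9 groups) and for its neighbour share (10 groups). Of the 19 searches, 5 found one. The rule finds about 1 in 20 for normally spread values. Neighbour shares are skewed, with a median of 84.06%, a lowest value of 0% and a highest of 96.87%, so these finds are not read as an excess over chance. Replicate 5 of 23 cycles was found in both, with a difference of -22.9 points where the nearest other library of its group was at -6.76. It had 1.1% of chromosome 19 windows positive at a coverage of 21.5%, and its neighbour share was 62.5%, with the nearest at 86.1%. That share rests on 16 positive windows, fewer than the 20 asked for in the comparison of neighbour shares. Low neighbour shares also marked replicate 5 of protocol A (20.0%, nearest 56.7%), whose coverage was 3.40%, replicate 2 of protocol C (23.4%, nearest 70.7%) and replicate 3 of proteinase K 1 µl (51%, nearest 79.3%). The protocol A share rests on 20 positive windows. On the other autosomes these libraries had neighbour shares of 41.59%, 53.85% and 63.35%, each the lowest of its group. Their low shares were therefore not particular to chromosome 19. Replicate numbers only name libraries.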

How the results depend on the processing

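Presence calls without read depth, 249 libraries and 3 to 5 libraries in the smallest arms limit what these values can show, and single window pairs in 54 libraries rest on few joint calls. Of 77 alternative values for 24 results, 66 kept direction and side of the threshold, or stayed within the error or 1.5 times the count. With medians in place of means, 5 arm contrasts turned, none of them past the threshold: protocol C minus A to 2.71 points, proteinase K 2 minus 1 µl to -0.362, frozen early minus late to -3.36, 23 minus 20 cycles to 5.17, and large minus small kit to -3.09. Leaving out each library in turn gave -7.09 to 2.66 points for 23 minus 20 cycles, -17.0 to -2.63 for 25 minus 20 cycles, -12.9 to 0.250 for 25 minus 23 cycles and 0.630 to 9.28 for proteinase K, lowest without replicate 1 of 2 µl (the 2 µl libraries were left out as a choice made after seeing the data). The first 5 Mb in place of 10 Mb gave 2.89 points and passed. With a Mantel-Haenszel test by tertile of library coverage, 28 windows in place of 58 differed between the full collection and the others at an unadjusted p under 0.05. An insulation square of 200 kb gave 117 boundaries and one of 800 kb 29, in place of 62. The cause of these changes was not tested. Libraries of different arms could not be paired because the labels carry no replicate numbers.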
